A study of Arabidopsis thaliana with 12 samples.

Results

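The 5 genes described here make and recycle glutathione and build phytochelatins in Arabidopsis thaliana. They are GSH1 (AT4G23100), GSH2 (AT5G27380), PCS1 (AT5G44070, annotated under the symbol CAD1), PCS2 (AT1G03980) and GR1 (AT3G24170). They were picked by gene identifier for their role, with earlier results of these data known, and are 5 of the 33557 genes listed. Root messenger RNA was measured in Col-0 seedlings given arsenate, As(V), or a mock treatment, with 2 libraries per group, 6 groups and 12 libraries in all. The seedlings of all groups had 1 mM phosphate for 7 days and none for the next 2 days. They were then kept in liquid phosphate-free medium for 1.5, 6 or 24 h, with 30 µM As(V) in the treated groups. Every library was made from the roots of 60 pooled seedlings, so mock roots were starved of phosphate as well, and cell types were not separated.

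Glutathione is a tripeptide of glutamate, cysteine and glycine. GSH1, glutamate-cysteine ligase, joins the first pair of amino acids in the plastid, and GSH2, glutathione synthetase, adds glycine. PCS1 and PCS2 are phytochelatin synthases, which join glutathione units into peptides whose thiols bind arsenite, the form to which plants reduce arsenate, and which are stored in the vacuole as complexes. GR1, the glutathione reductase of the cytosol and peroxisome, returns oxidised glutathione to its reduced form with electrons from NADPH.

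Values are deposited FPKM (fragments per kilobase of transcript, scaled for depth), a level per length of transcript. Changes are log2 changes of FPKM + 1, As(V) minus mock unless another contrast is given, with their SE. They come from limma fitted to all 12 libraries, with Benjamini-Hochberg adjustment over 19834 genes. A gene with an adjusted p under 0.05 is called. All 5 genes passed the filter on low values, PCS2 only through its 24 h and some mock libraries. The labels do not say whether the libraries of a group came from separate cultures, so p-values measure only the spread between these samples.

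The reads assigned to genes, estimated from steps in the values or from exon length, came to between 12.60 and 15.66 megareads in each library. The scaling of the deposited values differed between the groups. The library size behind it was 0.997 to 1.05 of the reads in genes in mock. With As(V) it was 0.641 and 0.656 after 1.5 h, 0.445 and 0.460 after 6 h, and 1.13 and 1.06 after 24 h. With library totals in its place, log2 changes of well expressed genes shift by -0.63 at 1.5 h, -1.22 at 6 h and 0.10 at 24 h. The median change of all genes was -0.09, -0.12 and -0.06 as deposited and -0.62, -1.08 and 0.03 with library totals. The median change of 6 housekeeping genes, a check of scale, was 0.02, -0.27 and -0.22 as deposited at 1.5, 6 and 24 h. With library totals it was -0.59, -1.46 and -0.12. Among them UBQ10 rose from a mean of 893 FPKM in mock to 10582 with As(V) at 6 h. ACT2 fell from 636 to 230 FPKM at 24 h. Which scaling is nearer to RNA amounts was not tested. For the 5 genes, changes from mock are given under both scalings where direction or call differs. All 8 root markers were above 0 in every library. Their summed level was 479.5 to 659.2 FPKM in mock, and it was lower with As(V), at 212.7 to 225.5 after 1.5 h, 149.7 to 170.0 after 6 h and 272.6 to 289.0 after 24 h. The 5 shoot markers summed to 51.8 to 124.3 FPKM in mock and 29.3 to 182.4 with As(V). RBCS1A, the small subunit of Rubisco, ran from 14.0 to 125.8 FPKM, RCA from 13.4 to 38.1 and CA1 from 0.537 to 17.4, while the light-harvesting genes LHCB1.1 and LHCB2.1 were the lowest of the 5, LHCB2.1 at most 1.08 FPKM and LHCB1.1 at 0 in 1 library. At 1.5 h 1 library of each group stood apart in the shoot marker sum, replicate 1 of mock at 124.3 FPKM against 59.3 and replicate 2 of As(V) at 182.4 against 46.7. Without that mock library the 1.5 h changes of GSH1, GSH2 and PCS1 were 1.01, 0.78 and 3.49, and without that As(V) library 1.02, 0.85 and 3.57. Those of GR1 and PCS2 were 0.18 and -0.42 without that mock library, and 0.25 and -0.25 without that As(V) library. The part of these shifts in the results below was not tested, and in whole roots fewer cells of a type and less RNA per cell cannot be told apart.

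With As(V), the genes peaked at different times. PCS1 was highest at 1.5 h, GSH1 and GSH2 at 6 h, and GR1 stayed high from 6 to 24 h. With library totals GSH2 was instead lower at 6 h than at 1.5 h of As(V) (-0.29, adjusted p = 0.0076), and GR1 was higher at 24 h than at 6 h (1.32, adjusted p = 1.7e-09). As deposited, the GSH2 rise between 1.5 and 6 h of As(V) was 0.23 ± 0.08 (limma, adjusted p = 0.032). That call was lost without As(V) replicate 2 at 1.5 h (0.17) or replicate 1 at 6 h (0.13), and without the filter on low values. At 1.5 h 4 of the 5 genes were called higher and 0 lower, where 30.0% of all genes tested were called higher and 33.6% lower. At 6 h the same 4 were higher and 0 lower, against 35.7% and 37.5% of all genes. At 24 h 1 was higher and 3 were lower, against 29.4% and 36.3%. PCS2 was not called at any time, at levels where the 1 added to FPKM bounds the log2 change. With library totals the counts became 2 higher and 2 lower at 1.5 h, where 15.5% of all genes were higher and 62.4% lower. They became 2 higher and 1 lower at 6 h (16.6% and 69.8% of all genes) and 1 higher and 2 lower at 24 h (34.5% and 32.5%).

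Across times, 4 of the 5 genes were called between 1.5 and 6 h of As(V), 5 between 1.5 and 24 h, and 4 between 6 and 24 h (5 with library totals), where 48.7%, 66.3% and 68.0% of all genes were. In mock 2, 4 and 3 of the 5 were called in the same order, against 20.9%, 24.0% and 23.6% of all genes. The As(V) effect itself differed between times for 3, 4 and 3 of the 5 genes, against 43.8%, 60.1% and 62.0% of all genes. With library totals it differed for 4, 4 and 4, against 53.1%, 69.1% and 76.1%.

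**Figure D1:**
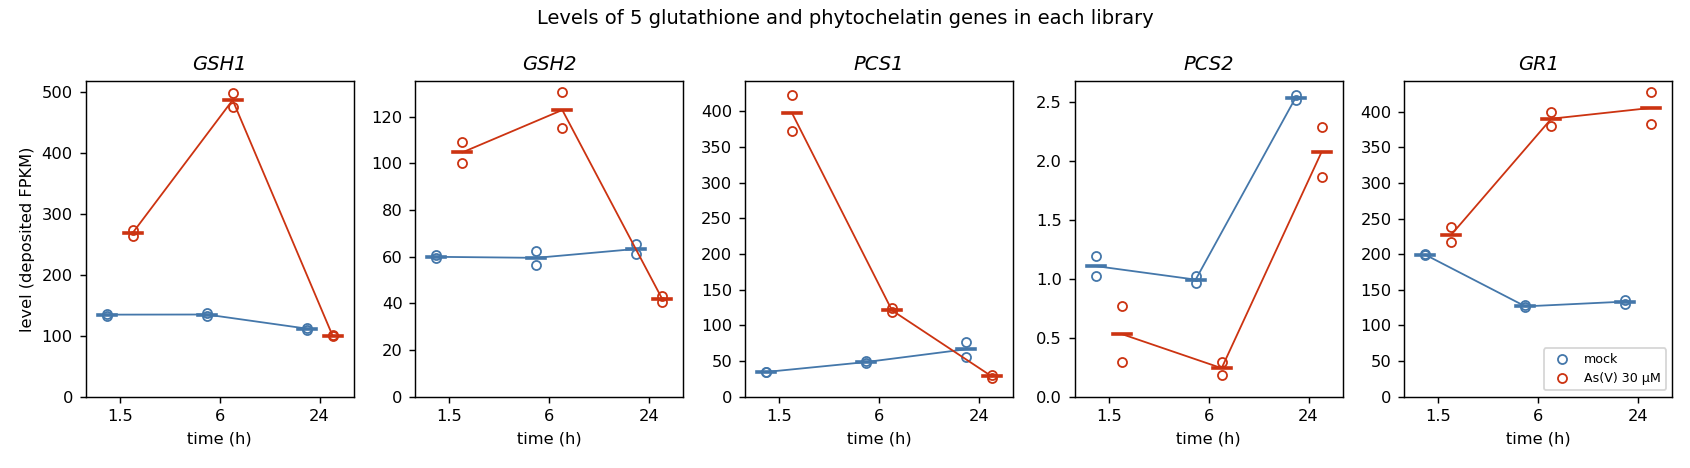
Deposited FPKM (vertical axis, from 0, one scale per gene) against time (h) for the 5 genes; each circle is a library, bars are group means joined by lines, blue is mock and red is 30 µM As(V). PCS1 is highest at 1.5 h of As(V) (373 and 423 FPKM), GSH1 at 6 h (476 and 498), and GR1 at 6 and 24 h (380 to 428).

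GSH1 catalyses the step that limits glutathione synthesis. In mock it stood at 136 and 133 FPKM at 1.5 h, 137 and 133 at 6 h, and 110 and 113 at 24 h. With As(V) it was at 274 and 265 FPKM at 1.5 h, 498 and 476 at 6 h, and 99.9 and 101 at 24 h. The groups did not overlap at any time, and the As(V) libraries were above mock at 1.5 and 6 h and below it at 24 h. GSH1 rose by 0.99 ± 0.05 at 1.5 h (limma, adjusted p = 1.4e-08) and by 1.84 ± 0.05 at 6 h (adjusted p = 3.6e-11). With library totals both calls held at smaller sizes, 0.37 (adjusted p = 2.8e-05) and 0.63 (adjusted p = 1.5e-07). At 24 h the change was -0.16 ± 0.05 (adjusted p = 0.014), a call lost with library totals (-0.06, adjusted p = 0.33) and with median-of-ratios scaling (-0.05, adjusted p = 0.35). It was also lost without replicate 2 of mock (adjusted p = 0.063) or replicate 1 of As(V) (adjusted p = 0.055). In mock GSH1 did not differ detectably between 1.5 and 6 h (0.00 ± 0.05, 95% interval -0.10 to 0.11). It was lower at 24 h than at 6 h by -0.27 ± 0.05 (adjusted p = 0.0023).

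GSH2 was the lower expressed of the genes of the synthesis steps. Its mock libraries lay at 59.2 and 60.6 FPKM at 1.5 h, 62.4 and 56.6 at 6 h, and 61.2 and 65.4 at 24 h, with no call between times. With As(V) it was at 109 and 100 FPKM at 1.5 h, 131 and 115 at 6 h, and 43.3 and 40.4 at 24 h. Again the groups did not overlap and the order turned at 24 h. Its change was 0.79 ± 0.08 at 1.5 h (adjusted p = 4.7e-06), but 0.17 with library totals, where it was not called (adjusted p = 0.058). At 6 h it was 1.03 ± 0.08 (adjusted p = 2.9e-07), a direction that turned with library totals (-0.17, adjusted p = 0.058). The fall at 24 h, -0.59 ± 0.08 (adjusted p = 5.8e-05), was also called with library totals at -0.49 (adjusted p = 0.00018). GSH2 was thus at 66.1% of its mock mean at 24 h, and GSH1 at 89.6%.

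PCS1, the phytochelatin synthase that accounts for most phytochelatin made in Arabidopsis exposed to metals, changed most of the 5 genes at 1.5 h. Mock libraries held 35.1 and 34.4 FPKM at 1.5 h, 46.9 and 50.4 at 6 h, and 56.2 and 77.0 at 24 h. With As(V) the level was 423 and 373 FPKM at 1.5 h, 118 and 124 at 6 h, and 26.4 and 30.5 at 24 h. In mock the level was highest at 24 h, and with As(V) it was highest at 1.5 h and lowest at 24 h. PCS1 rose 11.4-fold over mock in the mean FPKM at 1.5 h, a change of 3.48 ± 0.13 (adjusted p = 2.3e-09), and this was 2.85 ± 0.12 with library totals (adjusted p = 3.2e-09). The change lay above that of 97.9% of the genes tested. At 6 h it was 1.30 ± 0.13 (adjusted p = 3.8e-06) as deposited and 0.10 ± 0.12 with library totals (adjusted p = 0.45). That call was thus lost with library totals, and it was kept with median-of-ratios scaling (1.39). At 24 h PCS1 fell to 42.7% of mock, a change of -1.19 ± 0.13 (adjusted p = 1.5e-05) that was -1.09 with library totals (adjusted p = 1.3e-05). Within mock PCS1 was higher at 24 h than at 1.5 h by 0.90 ± 0.13 (adjusted p = 0.00058). Its call between 6 and 24 h of mock (0.43 ± 0.13, adjusted p = 0.033) was lost without replicate 2 at 24 h, at 0.20 (adjusted p = 0.22). Without replicate 1 or 2 of mock at 6 h the same call was lost as well, at 0.38 and 0.48 (adjusted p = 0.17 and 0.088). No filter on low values (adjusted p = 0.091) or no weights (adjusted p = 0.052) ended it too. With As(V) PCS1 was lower at 6 h than at 1.5 h by -1.70 ± 0.12 (adjusted p = 7.1e-07), and by -2.21 with library totals.

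PCS2, the paralogue of PCS1, was near the limit of detection in these roots. In mock it held 1.19 and 1.03 FPKM at 1.5 h, 0.963 and 1.02 at 6 h, and 2.56 and 2.51 at 24 h. With As(V) it was at 0.766 and 0.298 FPKM at 1.5 h, 0.297 and 0.189 at 6 h, and 1.86 and 2.29 at 24 h. All As(V) libraries were below the mock libraries of their time. Mean deposited FPKM of PCS2 with As(V) was 48.0% of mock at 1.5 h, 24.4% at 6 h and 81.9% at 24 h. About 20.3 to 25.2 estimated reads stood behind each mock value at 1.5 and 6 h, 3.68 and 9.33 behind the As(V) values at 1.5 h, and 1.86 and 2.77 at 6 h. No step in the values was recovered for PCS2, so these read numbers were estimated from exon length and are approximate. The changes were -0.48 ± 0.29 at 1.5 h (95% interval -1.12 to 0.17, adjusted p = 0.17), -0.68 ± 0.36 at 6 h (-1.48 to 0.11, adjusted p = 0.11) and -0.21 ± 0.14 at 24 h (-0.53 to 0.11, adjusted p = 0.22). The 1 added to FPKM before the log2 bounds how far a gene near 1 FPKM can fall. A missing call for PCS2 therefore does not show that its change was small. With library totals PCS2 was called lower at 1.5 h (-0.73, adjusted p = 0.037) and 6 h (-0.99, adjusted p = 0.022). It was also called lower at both times with a pseudocount of 0.1 (-1.03 and -1.69), without the filter on low values or without weights. In mock PCS2 rose by 0.83 ± 0.18 between 6 and 24 h (adjusted p = 0.0064), a call lost without replicate 1 (adjusted p = 0.052) or 2 (adjusted p = 0.053) of mock at 6 h. With As(V) it rose by 1.30 ± 0.34 over the same span (adjusted p = 0.006).

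The coding sequences of PCS1 (1458 bases) and PCS2 (1425 bases) were identical at 84.8% of aligned bases, with a longest shared run of 35 bases. Of all windows of 50 bases, the read length, in the exons of the 5 genes, 0 occurred a further time in the TAIR10.1 genome, so reads of this length from one synthase do not match the other exactly. PCS1 lies at chr5:17734706-17737859 on the plus strand and PCS2 at chr1:1019311-1022108 on the minus strand. GSH1 lies at chr4:12102135-12107695, GSH2 at chr5:9667912-9671015 and GR1 at chr3:8729354-8734624, each on the minus strand. The promoters of PCS1 and PCS2, from 250 bases before to 50 bases after the annotated start of the gene, are shown because PCS1 was called higher at 1.5 h of As(V) and PCS2 was not, a difference that was not itself tested. They were read 5′ to 3′ on the strand of the gene from RefSeq's TAIR10.1, at chr5:17734456-17734755 for PCS1 and chr1:1022059-1022358 for PCS2. Capitals mark matches to TTGACC or TTGACT on either strand, the core of the W-box bound by WRKY factors.
PCS1: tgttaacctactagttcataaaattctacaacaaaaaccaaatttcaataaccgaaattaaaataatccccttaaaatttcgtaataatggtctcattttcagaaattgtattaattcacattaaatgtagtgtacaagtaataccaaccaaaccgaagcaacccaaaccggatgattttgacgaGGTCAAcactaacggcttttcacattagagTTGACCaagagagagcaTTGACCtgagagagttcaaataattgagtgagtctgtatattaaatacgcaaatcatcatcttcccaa
PCS2: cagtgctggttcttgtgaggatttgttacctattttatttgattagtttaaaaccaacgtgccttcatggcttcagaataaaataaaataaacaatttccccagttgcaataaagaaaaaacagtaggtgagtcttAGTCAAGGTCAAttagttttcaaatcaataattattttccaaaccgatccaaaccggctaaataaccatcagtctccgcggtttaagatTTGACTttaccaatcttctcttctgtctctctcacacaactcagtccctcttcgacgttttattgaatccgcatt

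The PCS1 window held TTGACC at 3 places, whose first bases lie -65, -35 and -18 bases from the start. At least 1 TTGACC was present in 14.16% of 27443 promoters of protein-coding genes, and at least 3 in 0.11%. The PCS2 window held TTGACC once, at -108, and TTGACT at -114 and -25, a motif found in 21.85% of promoters, and at least 2 times in 3.67%. Counted over both spellings, the PCS2 window held as many W-box matches as the PCS1 window. The share of promoters with that many matches of either spelling was not computed. The GR1 window held 1 TTGACT, at -163, and the GSH1 and GSH2 windows held 0 of either. The heat shock element core GAANNTTC was present in the GSH2 window at -174 and in 11.58% of all promoters, and TTCNNGAA (9.16% of promoters) was in 0 of the 5. The phosphate-response motif GNATATNC (6.25%) and the G-box CACGTG (7.68%) had 0 matches in the 5 windows. The sulfur-response core GAGAC (32.84%) matched once in PCS1, at -160, and at -43 and -1 in PCS2, with at least 2 matches in 7.32% of promoters. The TGA-factor core TGACG (23.07%) matched in PCS1 at -71, next to the first W-box. These matches describe the letters of the windows, and binding was not measured.

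GR1 was the gene of the 5 that stayed high. Its mock level was 199 and 200 FPKM at 1.5 h, 128 and 125 at 6 h, and 136 and 131 at 24 h. With As(V) it was at 238 and 217 FPKM at 1.5 h, 400 and 380 at 6 h, and 383 and 428 at 24 h. Mock libraries were highest at 1.5 h, and As(V) libraries lowest at that time. GR1 was at 3.08-fold of mock at 6 h and 3.03-fold at 24 h, in mean FPKM. The change at 24 h, 1.59 ± 0.06 (adjusted p = 1.1e-08), was 1.69 ± 0.05 with library totals (adjusted p = 1.7e-09), and it lay above that of 97.1% of the genes tested. At 6 h the change was 1.61 ± 0.07 as deposited (adjusted p = 1.3e-09) and 0.40 with library totals (adjusted p = 2.1e-05), called in both. At 1.5 h it was 0.19 ± 0.07 (adjusted p = 0.026) and reversed with library totals to -0.44 (adjusted p = 1.7e-05). That call was also lost without either mock library (adjusted p = 0.083 and 0.071) or replicate 1 of As(V) (adjusted p = 0.20). In mock GR1 fell between 1.5 and 6 h by -0.65 ± 0.07 (adjusted p = 8.2e-05), and its change with As(V) at 6 h is measured from that lower level. Exons of GR1 overlap AT3G24160 on the opposite strand by 74 bases and AT3G24180 on its own strand by 14 bases, 3.19% and 0.60% of its exon bases. At 24 h these neighbours, named outside the rule for named genes, changed by -0.56 ± 0.05 (adjusted p = 1.8e-06) and -0.01 ± 0.07 (adjusted p = 0.93). At 6 h mean levels went from 198 to 245 FPKM for AT3G24160 and from 30.5 to 54.9 FPKM for AT3G24180. Both were called higher as deposited at 6 h and both lower with library totals, as were 35.7% and 69.8% of all genes.

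**Figure D2:**
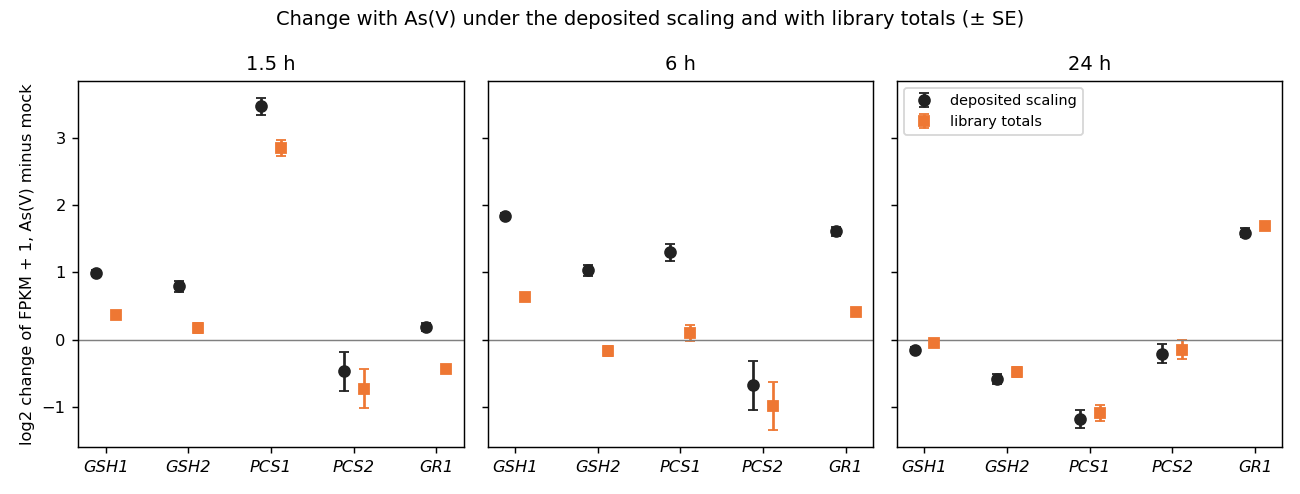
Log2 change of FPKM + 1 (vertical axis), As(V) minus mock, for the 5 genes at each time, as deposited (black circles) and with library totals (orange squares); bars are ± SE from limma. PCS1 at 1.5 h (3.48 and 2.85), GR1 at 24 h (1.59 and 1.69) and GSH1 at 6 h (1.84 and 0.63) are above 0 under both scalings, whereas GSH2 at 6 h lies at 1.03 and -0.17.

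Ratios between the genes within a library do not depend on the scaling between libraries, and are given as values without a test. PCS1 stood at 0.258 of GSH1 in both mock libraries at 1.5 h, and at 1.55 and 1.41 with As(V). At 6 h the order was turned, with 0.342 and 0.380 in mock and 0.237 and 0.261 with As(V). At 24 h the ratio was 0.509 and 0.679 in mock and 0.264 and 0.303 with As(V). PCS1 exceeded GSH1 in the As(V) libraries of 1.5 h and in none of the other 10.

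The ratio of GSH1 to GSH2, of the first to the second step of glutathione synthesis, was 2.30 and 2.20 in mock at 1.5 h and 2.51 and 2.64 with As(V). At 6 h it was 2.20 and 2.35 in mock and 3.81 and 4.14 with As(V), the widest gap between the pair. At 24 h it was 1.80 and 1.73 in mock and 2.31 and 2.49 with As(V), so GSH1 was higher relative to GSH2 with As(V) at every time. GR1 to GSH1 was 1.46 and 1.50 in mock at 1.5 h and 0.869 and 0.821 with As(V), and 0.934 and 0.944 against 0.802 and 0.799 at 6 h. At 24 h the order was turned, with 1.24 and 1.15 in mock and 3.83 and 4.24 with As(V). PCS1 to PCS2 was 22.0 to 49.3 over the mock libraries, 398 to 1250 over the As(V) libraries at 1.5 and 6 h, and 14.2 and 13.3 at 24 h of As(V). The PCS2 values under the high ratios rest on fewer than 10 estimated reads.

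**Figure D3:**
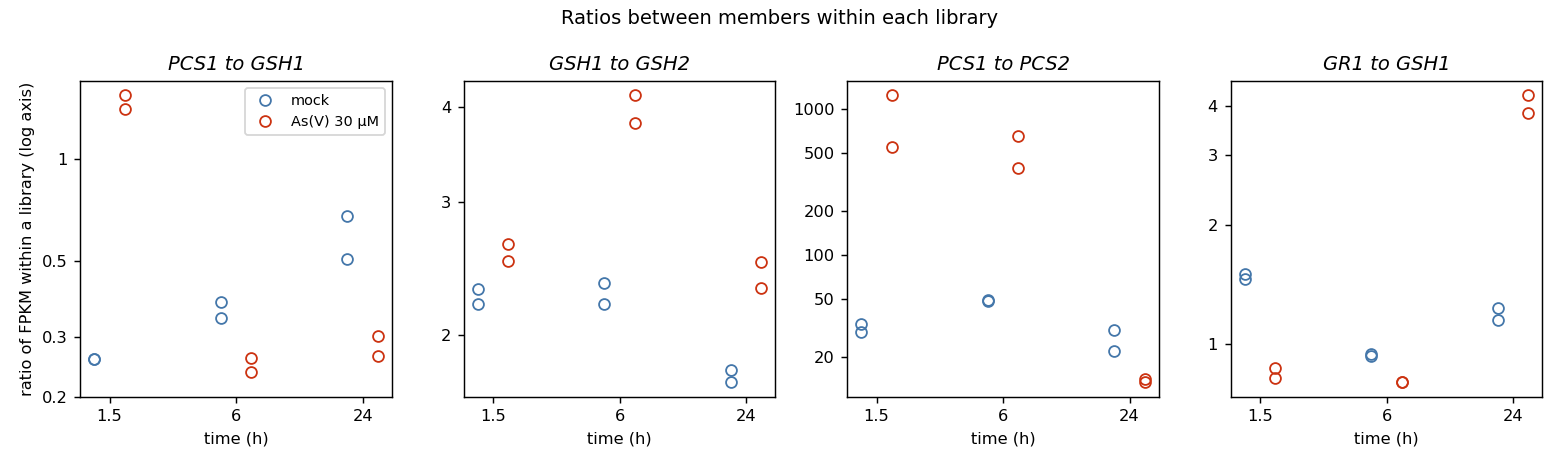
Ratio of FPKM of one gene to another within each library (vertical log axis) against time (h); each circle is a library, blue is mock and red is 30 µM As(V). PCS1 exceeds GSH1 at 1.5 h of As(V) (1.41 and 1.55), and GR1 stands at 3.83 and 4.24 times GSH1 at 24 h of As(V).

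Other genes of glutathione use were read from 5 lists of 34 genes, of which 32 were tested. GGT2, a transpeptidase, and GPX7, a peroxidase, were too low. The counts below stand beside the shares over all genes tested. As deposited, 30.0% were higher and 33.6% lower at 1.5 h, 35.7% and 37.5% at 6 h, and 29.4% and 36.3% at 24 h. With library totals these were 15.5% and 62.4%, 16.6% and 69.8%, and 34.5% and 32.5%. Of 8 tested genes of glutathione turnover, 5 were higher and 3 lower at 1.5 h, with a median of 1.01 against -0.09 over all genes. At 6 h 5 were again higher and 3 lower (median 1.14), and at 24 h 2 were higher and 6 lower (median -0.38), or 2 and 5 with library totals. With library totals 3 were higher and 3 lower at 6 h, with a median of -0.02. GGCT2;1, a cyclotransferase that splits glutathione in the cytosol, rose from 1.25 ± 0.35 to 76.3 ± 14.5 FPKM at 6 h (SD, n = 2 libraries), a change of 5.09 ± 0.32 (adjusted p = 5.9e-08). GGCT2;2 of the same family rose from 94.4 ± 0.30 to 2008 ± 76.0 FPKM at 6 h and was still higher at 24 h by 2.94 ± 0.10 (adjusted p = 5.9e-09). GGP1, a gamma-glutamyl peptidase, rose by 2.71 ± 0.10 at 1.5 h, and GGT1, an extracellular transpeptidase, by 2.46 ± 0.09. Like PCS1, GGT1 changed less at 6 h and was lower at 24 h, with 1.01 ± 0.11 at 6 h (-0.10 with library totals) and -1.33 ± 0.10 at 24 h.

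Glutathione and ascorbate redox genes, listed together with the thioredoxin reductases NTRA and NTRB, were mixed. NTRA and NTRB, named outside the rule for named genes, were called higher at 1.5 h (0.43 and 0.31) and 24 h (0.83 and 0.39). At 6 h they parted, with NTRA called higher (1.36) and NTRB not called (0.01). With library totals both were called lower at 1.5 h (-0.19 and -0.28). At 6 h NTRA was then called higher (0.15) and NTRB lower (-1.10). Of the 13 tested genes of this list, 7 were higher and 3 lower at 1.5 h (median 0.31), 7 and 3 at 6 h (median 0.21), and 5 and 5 at 24 h (median -0.21). With library totals 1 of the 13 was higher and 10 lower at 1.5 h (median -0.30), 5 and 7 at 6 h (median -0.95), and 6 and 5 at 24 h (median -0.12). Over all genes 62.4% were lower with library totals at 1.5 h (median -0.62) and 69.8% at 6 h (median -1.08). Without replicate 2 of mock or replicate 1 of As(V) at 1.5 h 4 were higher at that time. DHAR2, a cytosolic dehydroascorbate reductase that uses glutathione as donor, rose from 71.3 ± 4.05 to 1087 ± 84.5 FPKM at 1.5 h and by 5.11 ± 0.13 at 6 h (adjusted p = 4.9e-11). Its paralogue DHAR1 fell at each time under both scalings, by -1.79 ± 0.16 at 24 h (adjusted p = 4.1e-06). GPX1, a plastid peroxidase, rose by 3.56 ± 0.09 at 6 h (2.37 with library totals). GPX6, of the same family, changed by 1.60 ± 0.05 at 6 h (0.39 with library totals) and by 0.45 ± 0.05 at 1.5 h, a direction that turned with library totals (-0.18, adjusted p = 0.0055). GR2, the glutathione reductase of plastids and mitochondria, is named beside GR1 and outside the rule for named genes. It changed by -0.59 ± 0.08 at 1.5 h (-1.19 with library totals), by 0.21 ± 0.08 at 6 h, which turned to -0.95 with library totals, and by 0.40 ± 0.07 at 24 h (adjusted p = 0.00045), where GR1 changed by 1.59.

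ABCC1 and ABCC2, the vacuolar transporters of phytochelatin complexes, were both higher at 1.5 h, by 2.16 ± 0.06 and 2.24 ± 0.08, and at 6 h, by 3.54 ± 0.06 and 4.13 ± 0.08 (2.33 and 2.93 with library totals). At 24 h they parted, with ABCC1 at -0.28 ± 0.06 (adjusted p = 0.0021; -0.18 with library totals) and ABCC2 at 0.91 ± 0.08 (adjusted p = 2.6e-06). Of the 3 plastid transporters of glutathione and its precursor, 1 was higher and 2 lower at 1.5 h, and 0 were called at 24 h (limma, and 0 with an unadjusted p under 0.05). CLT1 changed by 1.18 ± 0.13 (0.61 with library totals), CLT2 by -0.90 ± 0.22 and CLT3 by -1.34 ± 0.13 at 1.5 h. At 6 h CLT1, CLT2 and CLT3 changed by 0.57 ± 0.12, -0.72 ± 0.27 and 0.55 ± 0.13. With library totals they changed by -0.53, -1.38 and -0.59, all called lower, as were 69.8% of all genes.

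Genes of cysteine supply were 3 higher and 1 lower of 6 at 1.5 h (median 0.22), 5 and 1 at 6 h (median 1.01), and 2 and 4 at 24 h (median -0.52). With library totals 2 were higher and 4 lower at 1.5 h (median -0.40), and 2 and 3 at 6 h (median -0.19). Over all genes 62.4% were lower with library totals at 1.5 h and 69.8% at 6 h. SERAT2;1, the plastid serine acetyltransferase that supplies the carbon backbone of cysteine, rose from 99.5 ± 0.77 to 1068 ± 17.9 FPKM at 1.5 h and from 41.1 ± 4.40 to 1446 ± 42.9 at 6 h. SERAT2;2, the mitochondrial enzyme, rose by 1.35 ± 0.07 and 2.12 ± 0.07 at these times (0.73 and 0.91 with library totals) and changed by -0.66 ± 0.07 at 24 h. OASB, the plastid enzyme that makes cysteine, rose by 1.31 ± 0.06 at 6 h (0.11 with library totals, adjusted p = 0.093). OASA1, its cytosolic counterpart, fell by 1.00 on the log2 scale at 24 h (SE 0.06, adjusted p = 1.1e-07), when GSH2 and PCS1 were lower too.

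**Figure D4:**
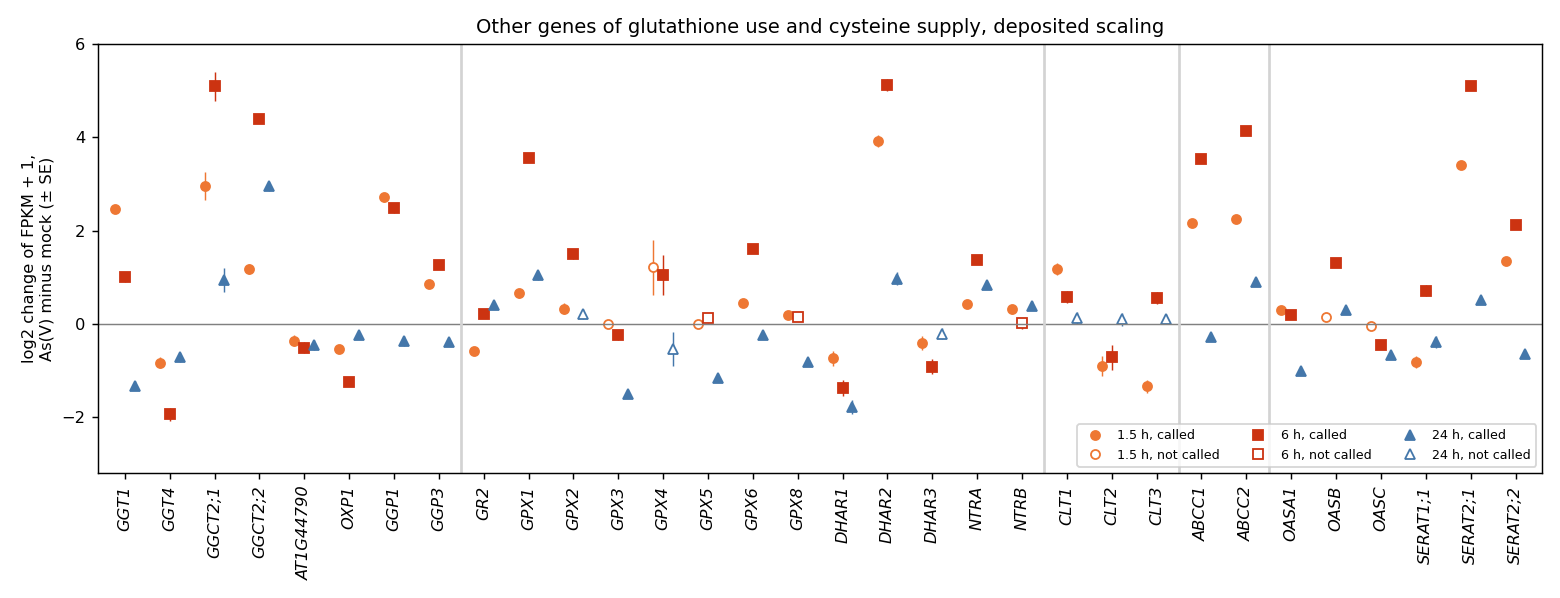
Log2 change of FPKM + 1 (vertical axis, ± SE from limma), As(V) minus mock as deposited, for the 32 tested genes of the 5 lists, divided by grey lines into turnover, redox, plastid transport, vacuolar transport and cysteine supply; filled symbols are called. GGCT2;1 (5.09), DHAR2 (5.11), SERAT2;1 (5.10) and ABCC2 (4.13) stand high at 6 h, and most 24 h values (blue triangles) lie nearer to 0.

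The genes whose levels ran most like each member were ranked by Pearson r of log2(FPKM + 1) over the 12 libraries among 14585 genes with a mean of at least 5 FPKM. The libraries form 6 groups and share their scaling, so r is a description. For GSH1 they were TOM1 (AT4G21790, r = 0.998), PSB29 (AT2G20890, r = 0.995) and AT1G09130 (r = 0.995). For GSH2 they were AT3G11320 (r = 0.991), MYB86 (AT5G26660, r = 0.991) and AT3G26670 (r = 0.988). PCS1 was followed most closely by PAP1 (AT2G01180, r = 0.990), AT4G28400 (r = 0.990) and B120 (AT4G21390, r = 0.987). PCS2 had lower values, led by AT2G35050 (r = 0.956), AT1G68880 (r = 0.956) and AT3G51670 (r = 0.953). GR1 was closest to AT1G35190 (r = 0.989), AT1G15170 (r = 0.987) and MUG2 (AT2G30640, r = 0.985).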

How the data were processed

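Per the labels, stranded messenger RNA libraries of Arabidopsis roots were sequenced single-end with 50-base reads. The submitters' processing notes name Trim Galore, STAR 2.5.4, HTSeq 0.6.0, edgeR and TAIR10, with no role or order. The deposited values are FPKM, as judged from the values; the formula of their scaling and the annotation version are not given in the sources used here. The series table and the files per library held the same values (largest difference 0).

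Within a gene, values are whole multiples of a step, recovered within 0.05 reads for 15811 of 23156 genes with enough values (68.3%). Ratios of steps gave the relative value of a read per library. Reads per gene were estimated from the step, or from exon length less 205 bases, a relation that held for 1227 of 14603 genes, so read numbers are approximate. Among the genes described here a step was recovered only for GSH2. At a length of 1500 bases, 1 read equals 0.0453 to 0.124 FPKM. Replicates differed beyond counting error (chi-square over degrees of freedom 2.67 to 10.0).

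Genes with at least 1 FPKM and at least 10 estimated reads, each in at least 2 libraries, were tested (19834) with limma 3.58.1 in R 4.3.3. The fit used log2(FPKM + 1), 1 coefficient per group, voom weights on estimated reads and robust variances. A run on simulated data had far fewer changed genes than were called here and the same spread for every gene. Nothing is drawn from that run. Tests are two-sided. Alternatives were library totals, median-of-ratios scaling, pseudocount 0.1, no filter, a variance trend without weights, each library left out, and a replicate block. Names, exons and promoters came from RefSeq's TAIR10.1. The members, lists and motifs were chosen with earlier results of these data known. List genes named are up to 4 per list with the largest called change and a mean of at least 5 FPKM, or all of a list of 3 or fewer.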

Additional observations from a re-analysis of the deposited data

Results flagged for a closer look

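The response to As(V) differed between at least 1 pair of time points for 4 of the 5 genes. The test was that of the difference between effects in limma with Benjamini-Hochberg adjustment. The share of all genes that differed between any pair was not computed, and it is at least the 62.0% found between 6 and 24 h. Between 1.5 and 6 h 3 of 5 genes differed, where 43.8% of all genes tested did. The effect on GSH1 grew by 0.85 ± 0.07 (log2, adjusted p = 2.2e-06) and that on GR1 by 1.42 ± 0.09 (adjusted p = 5.9e-07), whereas the effect on PCS1 shrank, by -2.18 ± 0.18 (adjusted p = 3.8e-06). With library totals these were 0.27, 0.84 and -2.75, each still called.

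Between 1.5 and 24 h 4 of 5 differed, against 60.1% of all genes. The effects moved by -1.15 ± 0.07 for GSH1, -1.38 ± 0.11 for GSH2, -4.66 ± 0.18 for PCS1 and 1.40 ± 0.09 for GR1 (largest adjusted p = 1.7e-06). With library totals these were -0.42, -0.66, -3.95 and 2.13, each still called. Between 6 and 24 h 3 of 5 differed, against 62.0% of all genes, by -2.00 ± 0.07 for GSH1, -1.62 ± 0.11 for GSH2 and -2.48 ± 0.18 for PCS1 (largest adjusted p = 6.4e-07). With library totals the last 3 were -0.69, -0.32 and -1.19 and still called, and GR1, at -0.02 ± 0.09 as deposited (adjusted p = 0.86), was called at 1.29. PCS2 had no call in these differences (adjusted p from 0.31 to 0.75). With a pseudocount of 0.1 its effect was called as different between 6 and 24 h (1.4, limma, adjusted p = 0.045).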

How the results depend on the processing

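GR1 at 1.5 h and GSH2 at 6 h turned direction with library totals. With median-of-ratios scaling they kept direction and call, at 0.26 and 1.13. GSH2 at 1.5 h (0.86) and PCS1 at 6 h (1.39) were also still called with that scaling. GSH1 and PCS1 at 1.5 h and GSH1 and GR1 at 6 h kept direction and call in every alternative run. With library totals, GSH2 lay at 0.17 at 1.5 h and -0.17 at 6 h, GR1 at -0.44 at 1.5 h, PCS1 at 0.10 at 6 h, GSH1 at -0.0555 at 24 h (-0.0527 with median-of-ratios scaling), and PCS2 at -0.73 at 1.5 h and -0.99 at 6 h. PCS2 was called lower at 1.5 and 6 h also with a pseudocount of 0.1 (-1.03 and -1.69), without the filter (-0.48 and -0.68) and without weights (-0.48 and -0.68). Leaving out each library in turn gave 0.12 to 0.25 for GR1 at 1.5 h and -0.18 to -0.14 for GSH1 at 24 h. Of the contrasts between times, library totals turned GSH2 to -0.34 (As(V) effect, 6 h minus 1.5 h), -0.29 (As(V), same times) and 0.0534 (mock, same times), and GR1 to 1.29 (As(V) effect, 24 h minus 6 h). Median-of-ratios scaling turned GSH1 to -0.0182 (mock, 6 h minus 1.5 h). Uncalled contrasts that crossed 0 with a library left out were GSH1 (-0.0215 to 0.026) and GSH2 (-0.0819 to 0.058) in mock, 6 h minus 1.5 h, PCS2 in the As(V) effect over the same times (-0.43 to 0.0142), and GR1 in the As(V) effect (-0.10 to 0.0594) and in As(V) (-0.027 to 0.13), 24 h minus 6 h. Calls over all genes ranged from 2001 to 4463 (mock, 6 h minus 1.5 h, 4152 with all libraries) and from 2586 to 4642 (mock, 24 h minus 6 h, 4683). PCS1 in mock, 6 h minus 1.5 h, lost its call without any 1 of its 4 libraries. The cause was not tested. The correlation of replicate differences between groups was -0.04 to 0.14 over 15 pairs of groups. Between mock and As(V) of the same time it was -0.04, -0.01 and 0.14 at 1.5, 6 and 24 h. With 2 libraries per group these values cannot decide whether replicate numbers pair the libraries. A replicate block changed no call of the 5 genes and gave 12745, 14617 and 13088 calls at 1.5, 6 and 24 h, against 12626, 14523 and 13020. Of 1080 comparisons of member changes with an alternative, 1026 kept direction and call. PCS2 rested on few reads, at 1.86 to 9.33 estimated reads per library at 1.5 and 6 h of As(V).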
